A study of Mus musculus with 12 samples.

Results

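The response that both morpholinos shared was measured by comparing all 6 arrays of injected embryos with all 6 arrays of uninjected embryos, which are the 12 arrays of the series. Mouse zygotes of F1 C57BL6xDBA/2 females mated after superovulation received Oct4-MO or Ccna2-MO into the cytoplasm, or no injection, and were collected at the mid-2-cell stage. A morpholino (MO) is a synthetic oligonucleotide that binds an mRNA and blocks its translation. For each array 20 embryos were pooled and RNA equal to 10 of them went through 2 rounds of amplification, and each injected pool had an uninjected pool of the same embryo collection cultured beside it, which gives 3 pairs for each morpholino (pairs 1-1 to 1-3 for Oct4-MO and 2-1 to 2-3 for Ccna2-MO). The labels give a dose of 0.6 mM for both morpholinos, whereas the study's methods give a higher one for Ccna2-MO. For its arrays the study used Ccna2-MO as the control for microinjection, for the oligonucleotide itself and for holding transcripts bound by a morpholino. No array held embryos injected with buffer, with a mismatch morpholino or with one that lacks a mouse target. The study used such morpholinos in its phenotype and q-PCR experiments. The effects of piercing the cell, of carrying an oligonucleotide and of losing either protein therefore cannot be told apart in what the injected pools share.

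At the 2-cell stage the mouse embryo degrades much of the mRNA stored by the oocyte and starts transcription from its own genome on a large scale. Genes for making ribosomes, for translation and for RNA processing are among those transcribed in this first wave, while many oocyte transcripts, among them those of maternal-effect genes, decline. The injected and uninjected pools were thus compared at a time when RNA levels change quickly, and the stage within the 2-cell interval was not measured on the arrays.

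Levels are linear array intensities, and changes are differences of log2(intensity + 16), injected minus uninjected, which understate the changes of dim probe sets. On an array 39.3 to 42.7% of probe sets lay under 16. The embryo-defining genes were present on every array. Dppa3, a maternal factor kept through cleavage, ranged from 4808 to 6513, Nlrp5 from 1076 to 1451, Gdf9 from 362 to 662, Ooep from 336 to 1327 and Zp3 from 142 to 523. Of 48 measured oocyte and maternal-effect genes, 47 were among the 22468 probe sets with the higher mean log2 values, called the brighter part of the array here. Of 31 cumulus and granulosa cell markers, 9 were in that part. Their summed intensity was 1412 to 2168 on uninjected and 1362 to 2051 on injected arrays, and 18 of the 31 were above 0 in change, with none called. The gonadotropin receptor gene Fshr was at 1.16 to 5.7 on every array. Cyp11a1, which encodes the enzyme that starts steroid synthesis and is high in granulosa cells, was 12.5, 107 and 179 (lowest, median and highest) in uninjected and 184, 256 and 442 in injected pools. It did not pass (log2 change 1.45, standard error 0.32, limma adjusted p = 0.0608). Dimmer probe sets of Cyp11a1 changed by 0.03 and -0.11. Amhr2, another granulosa cell marker, went the other way, with 363, 490.3 and 966 in uninjected and 187, 364 and 989 in injected pools. It was lower in 5 of 6 pairs and did not pass (log2 change -0.52, standard error 0.24, limma adjusted p = 0.349). The dim markers Inhba, Has2 and Ptx3 changed by 0.21, 0.07 and 0.16. Whether follicle cells had a part in any change was not tested. Sperm markers summed to 762.2 to 1184 on uninjected and 998.4 to 1165 on injected arrays, and blood and macrophage markers to 1545 to 2125 and 833.2 to 2120, and none of either list was called.

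Of the probe sets that passed the test, more were lower than higher in injected embryos, whereas of all probe sets 45.9% had a change below 0. A linear model with the pair as a block and 1 effect of injection (limma) called 708 of 44937 probe sets (1.58%) at an adjusted p under 0.05, 169 of them higher (0.376%) and 539 lower (1.2%) in injected embryos. Of the lower ones 321 changed by more than 1 on the log2 scale, and of the higher ones 76. The median size of change was 0.962 among the higher and 1.09 among the lower probe sets, and 700 of the 708 lay in the brighter part. The higher probe sets moved the same way in 6 of 6 pairs in 166 of 169 cases, and the lower ones in 537 of 539, against 9.66% of all probe sets and 15.4% of the brighter ones. The call favours such a match, so these counts describe the calls and do not support them. The same holds where called genes are said below not to overlap between injected and uninjected pools. How many of all probe sets do not overlap was not counted. The median change of the brighter probe sets was -0.000492.

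Leaving out 1 pair left between 0 and 379 calls. Without pair 1-3, 2-2 or 2-3 there were 0 calls by limma, with 5802, 5786 and 5862 probe sets at an unadjusted p under 0.05 against 6751 with all pairs. Without pair 1-1, 1-2 or 2-1 there were 232, 72 and 379, of which 212, 68 and 285 were among the 708. No probe set called with all pairs changed its direction in any of the 6 cases. Nearly all of these probe sets moved the same way in 6 of 6 pairs, so leaving out 1 pair could not turn them. In simulated arrays with the real spreads, 12% of 50 probe sets in the brighter part that were changed 2-fold passed, and 62% of 50 changed 3-fold. Changes of about 2-fold can thus be missed. Fewer probe sets were changed in the simulation than were called on the real arrays, and the adjustment is stricter where fewer change. These shares therefore need not hold for the real arrays.

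One technical quantity moved with injection. The bioB and bioC control RNAs, bacterial sequences added at a fixed low amount to every hybridization, were brighter on the injected array in 6 of 6 pairs, by 0.296, 0.15 and 0.619 in pairs 1-1 to 1-3 and by 0.536, 0.135 and 0.169 in pairs 2-1 to 2-3. Each of their 10 probe sets was higher in 6 of 6 pairs, and the mean change was 0.32 ± 0.21 (SD, n = 6 pairs). An exact sign-flip test, two-sided, gave p = 0.0312, which is the smallest that 6 pairs allow. Their mean intensity was 573.7 to 875.2 on uninjected and 881.4 to 1057 on injected arrays, so the groups did not overlap. The much brighter bioD and cre controls changed by 0.017 on average, with 3 of 6 pairs higher. Centred on bioB and bioC, a setting chosen after the values were seen, the change of every gene shifts down by 0.32 on the log2 scale, 5059 probe sets are called, and 98.1% of them are lower (96 higher and 4963 lower) instead of 76.1%. Quantile normalization gives 65.6%. Changes below are relative to the authors' scaling, in which the median probe set is level, and the part of the spike-ins in them was not tested.

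**Figure D1:**
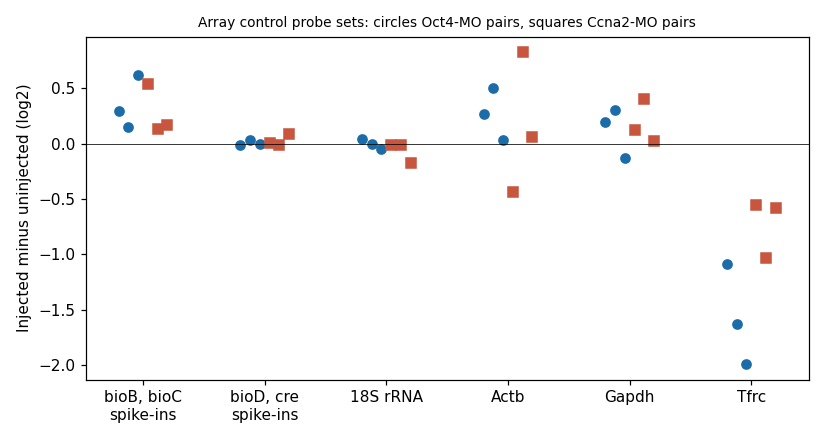
Change of the array's control probe sets in each pair (log2, injected minus uninjected), averaged over 10 probe sets for bioB and bioC, 8 for bioD and cre and 3 for each other target. All 6 points of bioB and bioC lie above 0 and all 6 of Tfrc lie below 0, while bioD, cre and 18S rRNA stay close to 0.

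The same figure shows a mouse gene that the array carries as a control. Tfrc, the transferrin receptor through which cells take up iron, was lower in 6 of 6 pairs on its 3 control probe sets, by 1.09, 1.63 and 1.99 with Oct4-MO and by 0.558, 1.03 and 0.584 with Ccna2-MO. Of its 3 ordinary probe sets, the brightest was 1221, 1631 and 2228 in uninjected and 251, 810 and 1937 in injected pools (log2 change -1.05, standard error 0.22) and missed the threshold (limma adjusted p = 0.0533), and the other 2 passed (limma adjusted p = 0.0298 and 0.0428). The control targets Actb and Gapdh were higher in 5 of 6 pairs each, by means of 0.21 and 0.153, with an exact p of 0.281 and 0.125.

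The changes in one experiment were found again in the other, with which it shares no array. Of the brighter probe sets, 1015 were lower in the Oct4-MO experiment at an unadjusted p under 0.01, fitted alone, and 88.9% of these were lower in the Ccna2-MO experiment, where 49% of all brighter probe sets were lower. In all 3 Ccna2-MO pairs 59.6% were lower, against 21.1% of all brighter ones. Their median change was -1.08 in the experiment that chose them and -0.66 in the other. In the reverse reading, 911 probe sets chosen as lower with Ccna2-MO were lower with Oct4-MO in 89.5% of cases, against 52.9%. Among higher probe sets the shares were 79.5% of 409 read in Ccna2-MO embryos, against 51%, and 78% of 596 read in Oct4-MO embryos, against 47.1%.

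Between any 2 pairs, the changes of the brighter probe sets were weakly correlated. Pearson's r over 22468 probe sets was 0.247 to 0.287 between Oct4-MO pairs, 0.244 to 0.382 between Ccna2-MO pairs and 0.0491 to 0.301 (mean 0.193, 9 combinations) between a pair of one morpholino and a pair of the other. Over the mean changes of both morpholinos r was 0.372. The pairs share no array but share the array design, the amplification and the brightness of each probe set, and probe sets are not independent replicates. The lowest r of the 15 combinations was that of pairs 1-2 and 2-1.

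**Figure D2:**
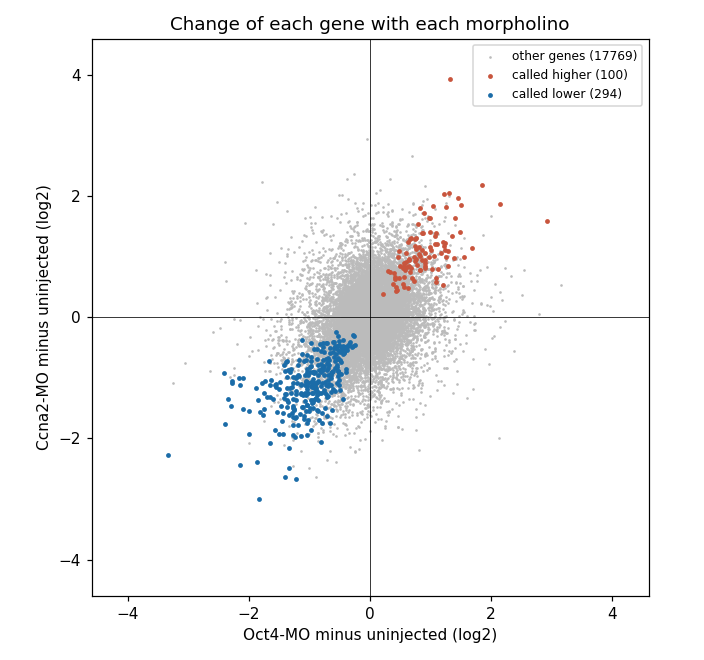
Change of each of 18163 genes on its brightest probe set with Oct4-MO (horizontal axis, log2) and with Ccna2-MO (vertical axis, log2), each against its uninjected pools. The 100 genes called higher in the common comparison lie in the upper right and the 294 called lower in the lower left, as the way of calling them requires, and Rasl11b is the gene near 4 on the vertical axis.

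No probe set passed the test of the difference between the morpholinos (0 calls by limma, 3285 at an unadjusted p under 0.05), and in a fit with 1 effect per morpholino 4 probe sets were called with Oct4-MO (0.0089%) and 124 with Ccna2-MO (0.276%). All 169 higher and all 539 lower probe sets had the same sign with both morpholinos. The way of calling them nearly requires this, so it describes the calls and does not support a shared response. The change was larger with Ccna2-MO for 122 of the 169 and for 334 of the 539. A difference that misses the threshold does not show that the morpholinos acted alike. Among the genes with the smallest p for the difference, Sfi1, a centrosomal protein gene, changed by 2.38 with Oct4-MO and by -0.55 with Ccna2-MO, and Ndufc1, a subunit gene of respiratory complex I, by 0.02 and -1.63. Zc3h13, Smim4 and Fzd7 also had a lower value with Ccna2-MO, with changes of -1.62, -1.79 and -1.82 against 0.00, 0.25 and 0.24 with Oct4-MO. Trim26, Zfp593 and Abcc10 changed by 1.56, 1.91 and 2.23 with Ccna2-MO and by -2.06, -1.53 and -1.79 with Oct4-MO, and Pfdn4 and Elovl2 by 1.46 and 0.997 against -0.29 and -0.25. The difference passed for none of these 10 (limma adjusted p = 0.24 for Sfi1 and 0.61 for the others). The change with 1 morpholino passed for 7 of them, with Oct4-MO for Sfi1 (limma adjusted p = 0.0496) and with Ccna2-MO for Ndufc1, Zc3h13, Smim4, Fzd7, Pfdn4 and Elovl2 (limma adjusted p = 0.0343 to 0.0464). Dimmer probe sets of these genes did not all follow. That of Sfi1 changed by -0.65 with Oct4-MO and by -0.80 with Ccna2-MO, and that of Trim26 by 0.29 and -0.51. Those of Zfp593 (-0.03 and -0.53) and Abcc10 (0.07 and 0.14) did not repeat the difference either. Those of Ndufc1, Fzd7 and Zc3h13 were again lower with Ccna2-MO than with Oct4-MO.

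On 1 probe set per gene, the brightest, 394 of 18163 genes were called (2.17%), 100 higher (0.551%) and 294 lower (1.62%). Of the called genes 221 had further probe sets in the brighter part. These numbered 395, of which 88.6% changed in the direction of the call, 76 were called that way and 0 the opposite way.

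The morpholino targets themselves changed little, and the arrays do not test the knockdown, since a morpholino need not lower its mRNA. Pou5f1, the gene of Oct4, was 1798, 1908 and 2112 in uninjected and 1825, 2214 and 2466 in injected pools (log2 change 0.16, standard error 0.08, limma adjusted p = 0.373), a direction that turns to -0.15 with the spike-in centring. Ccna2 was 2969, 3369 and 4222 in uninjected and 2309, 3057 and 4398 in injected pools (log2 change -0.22, standard error 0.07, limma adjusted p = 0.18), and 0.11 as the mean of its probe sets.

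The smallest adjusted p, 0.0153, was shared by 6 genes on their brightest probe sets, 3 of them higher (Zar1, Gyg and Fam133b) and 3 lower (Slc1a1, Larp4 and Jmy). Jmy, an actin nucleation factor that also acts as a p53 cofactor, was named after its values were seen and was lower in 6 of 6 pairs (log2 change -1.77, standard error 0.19). Zar1, a maternal-effect gene required for the transition from oocyte to embryo, was 36.1, 67.8 and 105 in uninjected and 196, 306 and 551 in injected pools. The lowest injected pool exceeded the highest uninjected one, and the pair changes ran from 1.52 to 2.67 (log2 change 2.02, standard error 0.20, a fold of 4.06). Gyg, which encodes glycogenin, the protein primer of glycogen synthesis, was 587, 654 and 955 in uninjected and 1538, 2297 and 3190 in injected pools, again without overlap. Its change was 1.64 (standard error 0.18), 1.23 with Oct4-MO and 2.04 with Ccna2-MO. Fam133b was 447, 563 and 794 in uninjected and 1215, 1679 and 1852 in injected pools, without overlap (log2 change 1.45, standard error 0.14).

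Slc1a1, which encodes a glutamate and aspartate transporter, fell in all pairs by a nearly equal amount. It was 268, 349.8 and 475 in uninjected and 56.9, 98.5 and 151 in injected pools, without overlap. Its pair changes were -1.8, -1.96 and -1.68 with Oct4-MO and -1.55, -1.57 and -1.55 with Ccna2-MO (log2 change -1.69, standard error 0.17). Larp4, which encodes an RNA-binding protein that protects poly(A) tails, was 2999, 3665 and 4490 in uninjected and 1592, 2378 and 3069 in injected pools. Its groups overlapped between experiments, but each injected pool was lower than its partner (log2 change -0.68, standard error 0.08). Smim7, a small membrane protein gene, was 736, 952 and 1679.7 in uninjected and 256, 327 and 611 in injected pools (log2 change -1.38, standard error 0.18, limma adjusted p = 0.0192).

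**Figure D3:**
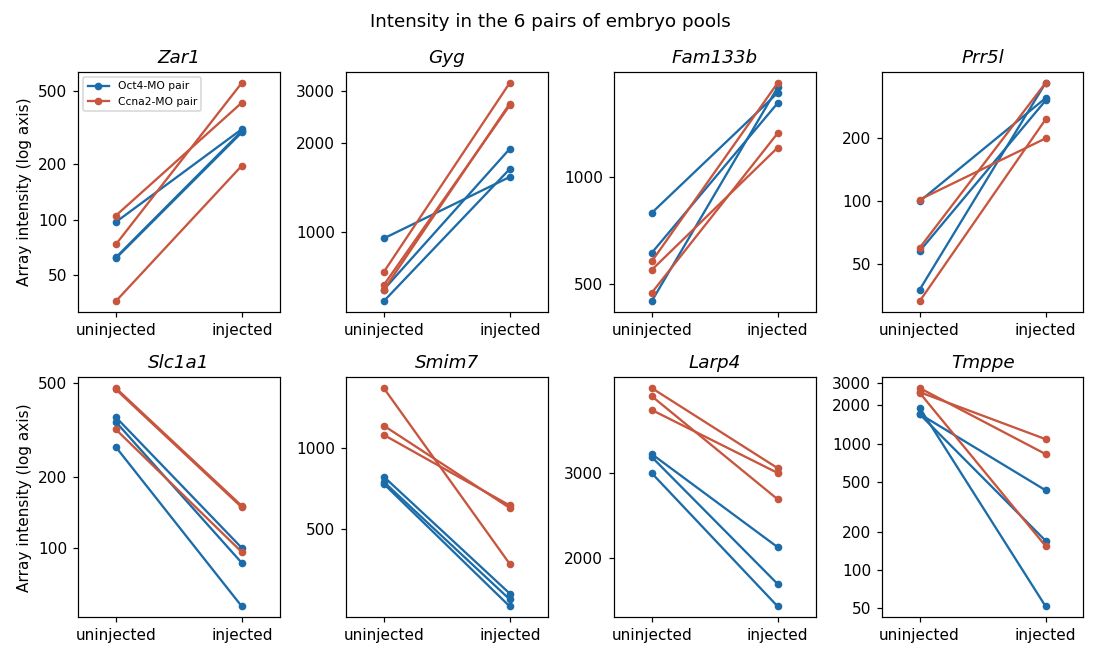
Array intensity (log axis) of 8 genes in the 6 pairs, with a line from each uninjected pool to its injected pool, blue for Oct4-MO and red for Ccna2-MO. Zar1, Gyg, Fam133b and Prr5l rose and Slc1a1, Smim7, Larp4 and Tmppe fell in 6 of 6 pairs.

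By size, the change of Rasl11b, a small GTPase gene, was the greatest among the higher genes of the brighter part that moved the same way in 6 of 6 pairs. It was 28.6, 71.8 and 155 in uninjected and 172, 646 and 1175 in injected pools (log2 change 2.63, standard error 0.51, limma adjusted p = 0.0426). The change was 3.94 with Ccna2-MO and 1.32 with Oct4-MO, and the test of this difference gave an unadjusted p of 0.0017 by limma that did not pass after adjustment. Prr5l, which encodes a protein that binds mTOR complex 2, was 33.3, 58.8 and 102 in uninjected and 200.2, 308 and 369 in injected pools, without overlap (log2 change 2.01, standard error 0.27). Pstpip1 (1.71), Plk2 (1.69), the chemokine receptor gene Cxcr4 (1.68), Pcid2 (1.54), Osbp2 (1.52), Csrp1 (1.44) and H13 (1.41) followed, each past the threshold. Plk2, Pstpip1, Osbp2 and H13 did not overlap between groups, and Cxcr4, Pcid2 and Csrp1 did.

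Among lower genes Tmppe, a transmembrane phosphoesterase gene, was 1708, 2220.4 and 2748 in uninjected and 51.3, 298 and 1082 in injected pools, without overlap (log2 change -2.81, standard error 0.43, limma adjusted p = 0.0244). Atp8b1, which encodes a phospholipid flippase, was 48, 103 and 671 in uninjected and 4.36, 8.6 and 31.6 in injected pools (log2 change -2.42, standard error 0.30). All its injected values but the highest lay under 16, a level at which differences are hard to measure. Klf9, a Krüppel-like transcription factor gene, was 992, 1244 and 1695 in uninjected and 126, 295 and 1075 in injected pools (log2 change -1.88, standard error 0.29, limma adjusted p = 0.0244), and 3 of its 7 probe sets passed. Aoc3 (-2.29), Tmed6 (-2.13), the piRNA pathway gene Pld6 (-2.07), the glycolytic regulator Pfkfb3 (-2.02), Cdk10 (-1.96), the inositol transporter Slc5a3 (-1.95), Zfp444 (-1.91), Col5a3 (-1.86) and Pign (-1.84) also passed. The median of the injected pools was 16.9 in Aoc3, 14.7 in Cdk10 and 9.66 in Col5a3, near or under 16. Aoc3, Tmed6, Pfkfb3 and Cdk10 did not overlap between groups. Other probe sets of Pign and Zfp444 did not all follow. Those of Pign changed by 0.28, -0.54, -0.42 and -0.08, the first 2 of them nearly as bright as the named one. Those of Zfp444 changed by 1.03 (2.86 with Oct4-MO and -0.80 with Ccna2-MO) and by -0.03.

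Genes that make ribosomes were lower together. Of 103 measured ribosome biogenesis factors, 96 had a change below 0, where 46% of all genes did. The median was -0.53, beside 0.02 over all genes, and the test called 18 lower (17.5%, where 1.62% of genes were called lower) and 0 higher. In 51 of the 103 the change was lower in 6 of 6 pairs, and in 1 it was higher in all. The median of the list was below 0 in each pair, from -0.93 to -0.23, and was -0.47 with Oct4-MO and -0.68 with Ccna2-MO. Without pair 1-2, 1-3, 2-2 or 2-3 none of the 103 was called, and without pair 1-1 or 2-1 there were 8, while the median without any 1 pair stayed between -0.60 and -0.48.

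The called factors come from several steps of ribosome making. Wdr36, a component of the small-subunit processome, was 547, 603 and 981 in uninjected and 200.3, 263 and 622 in injected pools (log2 change -1.11, standard error 0.16, limma adjusted p = 0.0217). Utp20, of the same processome, fell by 1.37 on the log2 scale and did not overlap between groups, from 294, 465 and 747 to 77.5, 203 and 266. Nolc1, a nucleolar phosphoprotein that binds snoRNPs, was 1713, 2456 and 2899.7 in uninjected and 962, 1486 and 2451 in injected pools (log2 change -0.63, standard error 0.09). Fbl, the methyltransferase of box C/D snoRNPs, and Dkc1, the pseudouridine synthase of box H/ACA snoRNPs, changed by -0.83 and -0.67. Ddx27, a helicase of large-subunit maturation, was 410.0, 471 and 872 in uninjected and 113, 154 and 326 in injected pools (log2 change -1.47, standard error 0.22). Its dimmer probe set changed by -0.23 (0.17 with Oct4-MO and -0.62 with Ccna2-MO). Rrp12, needed for late maturation and export of subunits, changed by -1.49. Fbl, Dkc1, Utp20 and Rrp12 were singled out after their values were seen.

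The ribosomal protein and initiation factor genes that were called were all lower, and most members of both lists were not called. Over all genes, 1.62% were called lower and 0.551% higher. Of 46 cytosolic ribosomal proteins measured, 42 were below 0, the median was -0.28 and 6 were called lower (13%), among them Rps3 (-0.75), Rpl41 (-0.57) and Rpl37a (-1.07). Rps3, a protein of the small subunit near the mRNA entry, was 1511, 2287 and 3136 in uninjected and 993, 1287 and 1603 in injected pools (standard error 0.10, limma adjusted p = 0.0206). Probe sets for ribosomal proteins can also bind transcripts of their many processed pseudogenes. Of 42 translation initiation factors 29 were below 0, with a median of -0.15, and 9 were called lower (21.4%). Of the 11 measured subunits of eIF3, the complex that recruits the small subunit to mRNA, singled out after their values were seen, 5 were called lower, namely Eif3c (-1.07), Eif3e (-1.55), Eif3d (-1.47), Eif3a (-0.50) and Eif3h (-0.72). The other 6 did not pass, with changes of -0.87 for Eif3m, -0.60 for Eif3b (-1.33 with Oct4-MO and 0.14 with Ccna2-MO), -0.28 for Eif3f, -0.24 for Eif3k, -0.21 for Eif3l and 0.26 for Eif3i. Eif3e was 919.7, 1031 and 1288 in uninjected and 187, 336 and 779 in injected pools, without overlap, and its change was -2.09 with Oct4-MO and -1.001 with Ccna2-MO (unadjusted p for the difference 0.0042 by limma, not passing after adjustment). Pabpc1, the poly(A)-binding protein gene, changed by -0.68 and Eif6, which keeps large subunits from joining early, by -0.79. Mitochondrial ribosomal proteins had 0 of 75 called (limma), with a median of -0.10, and their lowest p belonged to Mrpl33, which did not pass (log2 change -1.33, limma adjusted p = 0.0532). Of 49 tRNA synthetases and elongation factors, 2 were called lower (4.08%), Mars2 (-1.69) and Rars (-1.02), and 0 higher. Mars2 was dim, at 35.7 to 81 in uninjected and 4.7 to 22.5 in injected pools.

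**Figure D4:**
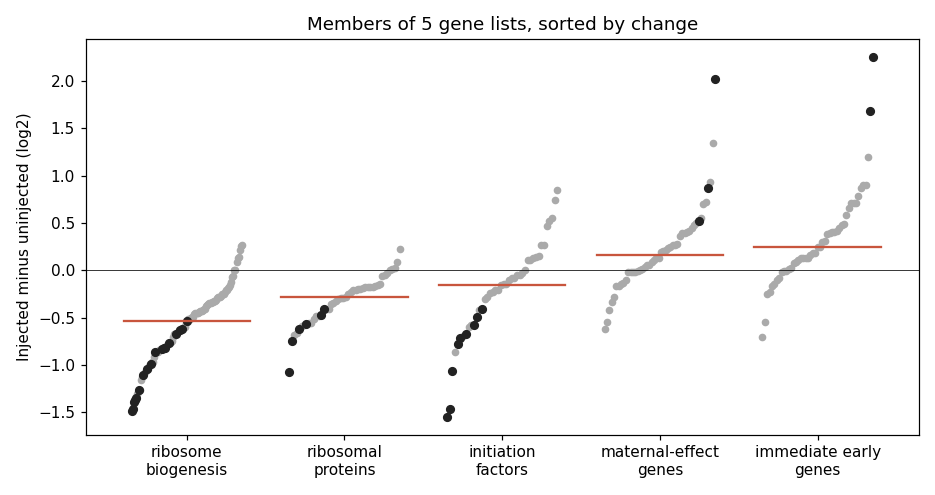
Change of each measured gene (log2, injected minus uninjected) in 5 lists, sorted within the list. Black points passed at an adjusted p under 0.05 (limma), grey points did not, and the red line is the median. All black points of the 3 lists on the left lie below 0, and all of the 2 on the right above 0.

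Maternal-effect and immediate early genes lay on the other side of 0 on the authors' scaling. Of 48 oocyte and maternal-effect genes 33 were above 0, with a median of 0.16 that was above 0 in each pair (0.056 to 0.28) and turned to -0.15 when arrays were centred on the spike-ins. Their summed intensity was 69010 to 76850 on uninjected and 76620 to 88150 on injected arrays. Of these genes 3 were called higher (6.25%, where 0.551% of genes were) and 0 lower, namely Zar1, Nlrp4f (0.87) and Tcl1 (0.52). Tcl1, a co-activator of AKT that oocytes store, was 2300.4, 2953 and 3381 in uninjected and 3486, 4191 and 5172 in injected pools, without overlap. Gdf9, an oocyte growth factor gene, was 362, 390.1 and 459 in uninjected and 516, 628 and 662 in injected pools and did not pass (log2 change 0.55, limma adjusted p = 0.0923). Dppa3 went the other way, lower in 6 of 6 pairs (log2 change -0.17, limma adjusted p = 0.062). Zp3 was lower in 5 of 6 pairs (-0.34), and Nlrp5 and Ooep changed by 0.20 and 0.13, without passing. In 12 of the 48 genes the change was higher in 6 of 6 pairs, and in 4 it was lower in all.

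Of 47 immediate early genes, which cells transcribe within minutes of a stimulus, 36 were above 0, with a median of 0.25 (-0.07 with the spike-in centring) and with each pair above 0. Only Jun and Plk2 were called, both higher (4.26%, where 0.551% of all genes were). Jun, a subunit of the AP-1 transcription factor, was 26.6, 56.4 and 119 in uninjected and 105, 475 and 824 in injected pools. It rose in 5 of 6 pairs, by 3.21, 2.14 and 3.41 with Oct4-MO and by 1.24 and 3.58 in pairs 2-2 and 2-3, and changed by -0.05 in pair 2-1 (log2 change 2.25, standard error 0.46, limma adjusted p = 0.0477). A dimmer probe set of Jun changed by -0.01. Plk2, a kinase gene that growth factors and p53 induce, was 38.6, 123 and 177 in uninjected and 209.5, 404 and 498 in injected pools, without overlap (limma adjusted p = 0.0314). It was also the only p53 target called higher of 44 (2.27%). Of these targets Ei24 was called lower (-0.38), also 2.27%, where 1.62% of all genes were.

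Stress lists held a few calls in both directions. Of all genes 0.551% were called higher and 1.62% lower, and the small counts below were not tested against these shares. The medians of the heat shock and integrated stress lists were 0.05 and 0.03, with pairs on both sides of 0. Of 49 heat shock genes, 2 were called higher, Hspa2 (0.80) and Hspa1a (1.02), and 3 lower, Dnajb9 (-0.49), Dnajb11 (-0.82) and Hsph1 (-0.48). Hspa1a, an inducible chaperone that is also among the first genes the embryo transcribes, was 178, 279 and 418 in uninjected and 521, 578 and 683 in injected pools, without overlap. Of 53 genes of the integrated stress and unfolded protein response, Mthfd2 (0.72) was higher and Pdia3 (-0.70) and Dnajb9 were lower. Mthfd2, a mitochondrial folate enzyme gene, was 800.4, 927 and 998 in uninjected and 1211, 1492 and 1934 in injected pools. Interferon response genes (62 measured) and apoptosis genes (50) had 0 calls by limma. Irf2 had the smallest p of the former at values under 12 (log2 change 0.36, limma adjusted p = 0.0525), and Apaf1 of the latter (log2 change -1.54, limma adjusted p = 0.0508). Of 67 plasma membrane repair genes 2 were lower, Snap23 (-0.68) and Snf8 (-1.27), and of 77 actin cortex genes Rdx was higher (0.45). Of 56 antioxidant genes Glrx (1.23) and Prdx2 (0.56) were higher, both without overlap between groups, and 0 were lower.

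The genes of the embryo's own transcription wave did not move as 1 group. Of 33 measured 2-cell genes 18 were above 0. Hspa1a and Obox2 (0.46) were called higher (6.06%, where 0.551% of all genes were). Rnf7 (-0.86), Nr5a2 (-0.82) and Trim43a (-0.75) were called lower (9.09%, where 1.62% were). Trim43a was 3156, 3707 and 3888 in uninjected and 1376, 2331 and 3146 in injected pools, with changes of -1.12 with Oct4-MO and -0.38 with Ccna2-MO (unadjusted p for the difference 0.00073 by limma, not passing after adjustment). Nr5a2, an orphan nuclear receptor gene active in the early embryo, was 429, 501 and 556 in uninjected and 252, 269.9 and 298 in injected pools, without overlap, with like changes of -0.79 and -0.85.

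Of 36 pluripotency regulators 24 were below 0, with a median of -0.19. Dppa2 (-0.61), Dppa5a (-0.82), Sall4 (-1.03), Rest (-0.46) and Nr5a2 were called lower (13.9%, where 1.62% of all genes were). Tcl1 was called higher (2.78%, where 0.551% were). Sall4, a zinc finger gene, was 1683, 1963 and 2208 in uninjected and 533, 975 and 1456 in injected pools, without overlap, and its change was -0.81 with Oct4-MO and -1.24 with Ccna2-MO. Of 39 trophectoderm and later lineage genes 0 were called (limma), and Gata4 had the smallest p (log2 change -0.91, limma adjusted p = 0.0529).

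A further list holds 29 genes, only a part of those that the study assayed by q-PCR in Oct4-MO embryos, many of them taken from the Oct4-MO arrays, so their direction with Oct4-MO is not independent of these values. In the Ccna2-MO experiment fitted alone, 26 of the 29 were lower (89.7%, where 46.8% of all genes were), with a median of -0.60 (-0.77 with Oct4-MO), and 22 were lower in all 3 Ccna2-MO pairs. In the common comparison 1.62% of all genes were called lower. Of the 29, 13 were called lower and 0 higher. Klf9, Sall4, Rest, Eif3c and Eif3e are among them, as are Bclaf1 (-0.69), Bmpr1a (-1.28), Pknox1 (-1.36) and Polr3e (-0.60), with Ccna2-MO changes of -0.71, -1.06, -1.63 and -0.43. Fgf4 and Gtf3c4 show how the probe set matters. Fgf4 changed by -1.33 on its brightest probe set (limma adjusted p = 0.249) and by -1.43 on another that passed (limma adjusted p = 0.0429), and Gtf3c4 by -0.71 (limma adjusted p = 0.21) and by -2.51 (limma adjusted p = 0.0217). This list was added after the values were seen, and its counts describe these 29 genes and not all that were assayed. For its q-PCR genes the study reports, without showing the data, no change in single embryos given a control morpholino against human globin. Such embryos were not on the arrays.

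**Figure D5:**
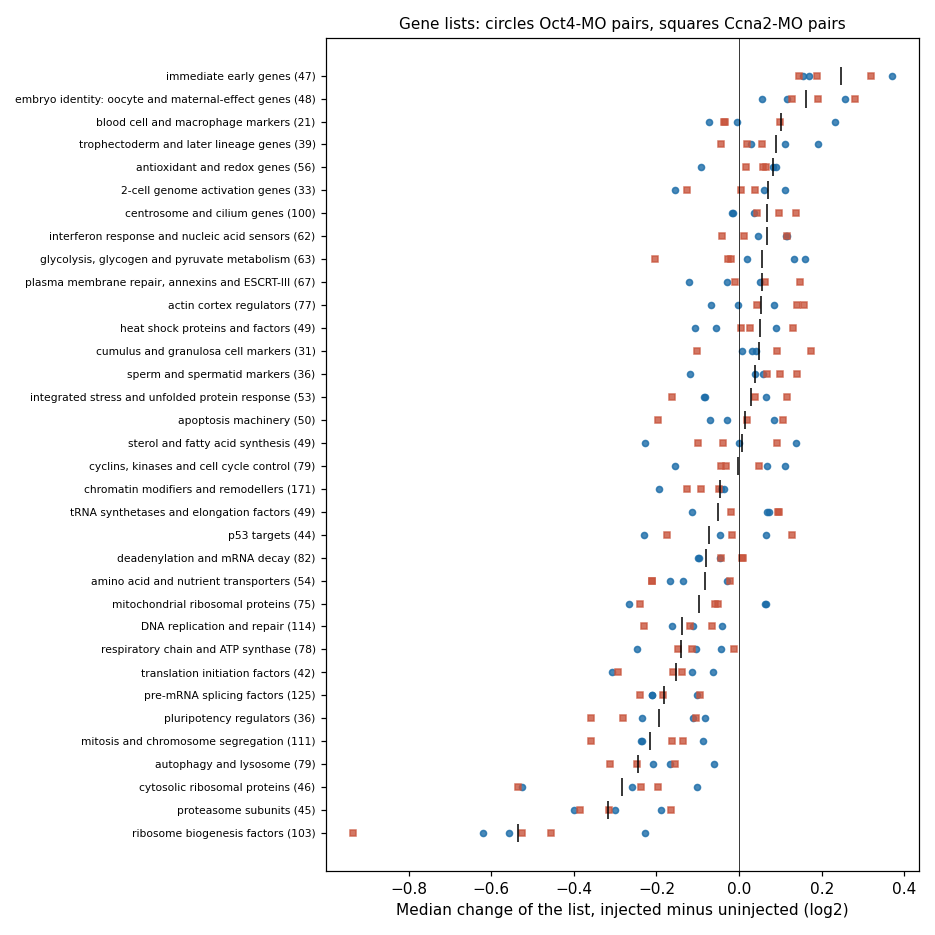
Median change (log2, injected minus uninjected) of 34 gene lists in each of the 6 pairs, with the number of measured genes in brackets and a black bar at the median of the gene changes averaged over the pairs. Ribosome biogenesis, proteasome and ribosomal protein lists lie farthest below 0 with all 6 pairs on that side, and immediate early and maternal-effect genes farthest above.

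Splicing, proteasome, autophagy, mitosis, replication and chromatin lists each had a median below 0 in 6 of 6 pairs. Of their members 2.22 to 7.59% were called lower, where 1.62% of all genes were. In the brighter part, where most of these genes lie, 533 of 22468 probe sets were called lower. The shares of the proteasome (2.22%) and replication (2.63%) lists are near that. Of 125 splicing factors 86 were below 0 (median -0.18). Snrpb2 (0.99) and Srpk2 (0.79), an SR protein kinase gene, were called higher, and 8 were lower (6.4%), among them Luc7l3 (-0.53), Scaf4 (-0.50) and Srsf1 (-0.71). Of 82 deadenylation and decay genes 49 were below 0, with a median of -0.08 (-0.08 with Oct4-MO and 0.03 with Ccna2-MO). In this list the decapping factor gene Dcp1a was higher (0.86), and 4 were lower (4.88%), among them Larp4, Celf1 (-1.06) and the exosome subunit gene Exosc3 (-0.96). Of 45 proteasome subunits 36 were below 0 (median -0.32), and only Psma6 was called (-1.44). It was 815, 996 and 1654 in uninjected and 193, 388 and 673 in injected pools, without overlap. Of 79 autophagy and lysosome genes, Atp6v1c1 of the proton pump was higher (0.88), and 6 were lower (7.59%), among them the cathepsins Ctsa (-1.46) and Ctsc (-1.12) and the conjugating enzyme Atg3 (-0.91).

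Among 111 mitosis genes 80 were below 0 (median -0.21). Cenpn was called higher (0.99) and 7 lower (6.31%), among them the spindle motor genes Kif11 (-1.39) and Cenpe (-0.94) and the kinetochore scaffold gene Knl1 (-1.09). Kif11 was 401, 734 and 968 in uninjected and 175, 254 and 352 in injected pools, without overlap. Of 79 cyclins and cell cycle regulators 1 was called, Anapc7 (-1.24), a subunit gene of the anaphase-promoting complex, and the median of the list, -0.003, turned to 0.03 with the arrays centred on the brighter part. Of 114 replication and repair genes 3 were lower, the helicase subunit Mcm7 (-0.88), Fancm (-1.09) and the clamp loader Rfc2 (-1.15). Of 171 chromatin genes the remodeller Chd4 was higher (0.54) and 9 were lower (5.26%), among them the deacetylase Sirt1 (-1.38), the Polycomb partner Mtf2 (-0.91) and Kdm3b (-1.32). Of 100 centrosome and cilium genes Inpp5e (-1.67) and Bbs2 (-1.54) were lower, a share of 2% that is near the 1.62% of all genes. The dimmer probe set of Inpp5e changed by -0.03.

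Metabolic lists held few calls, in both directions, where 0.551% of all genes were called higher and 1.62% lower. Of 63 genes of glycolysis, glycogen and pyruvate metabolism, Gyg and the glycogen-targeting phosphatase subunit gene Ppp1r3d (1.35) rose, and Pfkfb3 and Gsk3b (-0.73), the kinase that restrains glycogen synthase, fell. Pfkfb3 was 138, 212 and 368 in uninjected and 6.24, 51.5 and 112 in injected pools. Dimmer probe sets of Gsk3b changed by -0.43 to 0.01, and none passed. Of 54 amino acid and nutrient transporters, Slc25a15 was higher (0.73), and Slc1a1, Slc12a2 (-0.98) and the thiamine transporter Slc19a3 (-1.07) were lower. Of 78 respiratory chain genes Ecsit was lower (-1.58), and of 49 sterol and fatty acid genes 0 were called by limma (smallest p for Scd1, log2 change -0.81, limma adjusted p = 0.126).

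Promoter sequences were compared as a description only, after the calls were known. RefSeq promoters of the GRCm38.p6 build, 250 bases before to 50 after each start, were matched for 237 of the 294 lower and 92 of the 100 higher genes. The letters CCGGAAG, which ETS factors can bind, occurred on either strand in 29.1% of lower and 12% of higher genes, in 19.4% of the genes in the brighter part of the array and in 45.3% of ribosome biogenesis factors. The E-box CACGTG occurred in 19.8% of lower and 10.9% of higher genes, in 11.6% of brighter genes and in 19.8% of ribosome biogenesis factors. The CCAAT letters occurred in 40.9% of lower, 41.3% of higher and 43.4% of brighter genes, and GGGCGG in 73.8%, 66.3% and 66.9%. The median GC content was 61.3% for lower, 60% for higher and 60.7% for brighter genes.

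Short stretches from 6 named lower genes show where these letters stand, with the letters in capitals and the rest in lower case, all upstream of the start and written on the strand of the gene. They are, in GRCm38.p6, from chr8:123224798-123224824 (+), chr7:126566384-126566410 (-), chr15:99972739-99972765 (+), chr10:128549208-128549234 (-), chr11:59787675-59787700 (-) and chr2:11502128-11502153 (-), with the last capital 27, 28, 25, 50, 28 and 48 bases before the start.
Cdk10: ccagaacaaaCCGGAAGtacgtcatgc
Eif3c: accttttcctCTTCCGGcgtcgtgcct
Larp4: ccctccgcccCCGGAAGcagttttcct
Rpl41: agtaaggcagCCGGAAGtcgctgtctc
Pld6: ggcgggctggCACGTGttgggcgcgc
Pfkfb3: cccttctctcCACGTGaaagggggct
The first 4 hold the ETS letters, in Eif3c on the opposite strand, and the last 2 the E-box. Their changes ran from -0.57 in Rpl41 to -2.07 in Pld6. A match of letters is not a binding site, and nothing bound at these promoters was measured.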

How the data were processed

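Expression was measured on 12 Affymetrix Mouse Genome 430 2.0 arrays, 1 per pool, grouped and paired by their labels, which state that paired pools came from the same embryos. With dChip, the authors normalized and modelled the probe data and deposited 1 linear intensity per probe set, of which version and options: not given in the sources used here. Scaling in which most probe sets stay level hides a shift of all genes. Of 45001 probe sets, 64 array controls were left out of tests. The platform annotation gave 1 symbol for 34849 probe sets, several for 928 and none for 9160, and 2214 of 2446 entries of the gene lists were matched.

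log2(intensity + 16) was fitted with limma 3.58.1 (R 4.3.3) as pair plus injection, with an intensity trend, and p-values were adjusted by Benjamini-Hochberg over 44937 probe sets. The deviations of paired arrays had correlations of -0.0128 to 0.114. P-values measure the spread between these pools, and 6 pairs limit the precision. The steps were tested on simulated data with known changes: 0%, 12%, 62% and 72% of changes of 1.5-, 2-, 3- and 4-fold (50 each) were recovered, with 3 unchanged probe sets called.

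The comparison, gene lists and rules were chosen with earlier results of these data known. Genes are on their brightest probe set. Named are the 12 largest changes per direction among genes that passed, moved the same way in 6 of 6 pairs and lay in the brighter part; up to 3 called genes per list and direction, or the smallest p where none passed; the 5 smallest p per direction for the difference; the morpholino targets; and 9 genes of earlier results. Alternatives were other blocks, pseudocounts, filters, scalings and tests, each pair left out, and each experiment alone.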

Additional observations from a re-analysis of the deposited data

Results flagged for a closer look

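The bioB and bioC spike-ins, which were left out of the tests across probe sets, were higher on the injected array in 6 of 6 pairs, by 0.318 on average on the log2 scale. Their part in the other changes was not tested.

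Of 114 named genes, 6 had a pair whose change stood apart from the other 5 by Dixon's test, where chance flags about 1 in 20, and 0 of the 34 list medians did. Tmed6 changed by -4.36 in pair 2-2, with the nearest pair at -2.44. Kdm3b changed by -2.0 in pair 1-1 (nearest -1.36), and Atp6v1c1 by 1.56 in pair 1-3 (nearest 0.891). Ddx27 and Dppa2 changed least in pairs 2-1 and 1-1, by -0.456 and -0.167, with the nearest at -1.38 and -0.615. Fcgr3, a macrophage gene that did not pass, changed by -1.86 in pair 2-2 (nearest -0.488).

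The median of the genes of glycolysis, glycogen and pyruvate metabolism, 0.0565 over all pairs, was above 0 in the 3 Oct4-MO pairs and below 0 in the 3 Ccna2-MO pairs; this difference was not tested.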

How the results depend on the processing

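The count of 708 probe sets stayed within 1.5 times under 11 of 23 alternatives. It was 916 with no replicate block, 1043 with 4 group means and no replicate block, and 934 with the pair as a random block, and of the 708 calls 569, 562 and 575 were kept. Leaving out 1 pair gave 0 to 379, and the brighter part alone 1627. Either experiment alone gave 0 (5122 and 5287 at an unadjusted p under 0.05). An unpaired t-test of all injected against all uninjected arrays after Benjamini-Hochberg gave 61, and a paired one 8. The study's own ranking was not rerun. It combined fold change with an unpaired t-statistic for each knockdown and took its false discovery rate from permutations. Centred on the spike-ins the count was 5059. The mean of probe sets called 636 genes instead of 394.

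The count of 4 with Oct4-MO was 33 with no replicate block, 0 with 64 added before log2, 60 in the brighter part and 0 to 1 with a pair left out. The count of 124 with Ccna2-MO became 336 with no replicate block, 204 and 32 with 1 and 64 added, 874 in the brighter part and 0 to 1 with a pair left out. The difference between morpholinos gave 1 call with no replicate block and 0 otherwise.

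The 18 ribosome biogenesis factors called lower were 0 to 8 with a pair left out and 72 centred on the spike-ins, where the median was -0.851. List medians took the other sign in 17 of 34 lists with that centring and in 4 or fewer under any other alternative run for lists. Of 106 genes named in the text that passed, 0 reversed, though 573 of their 1378 values under alternatives missed the threshold, most with a pair left out. Among those that did not, Abcc10 ran from -0.346 to 0.77, Zfp593 from -0.173 to 0.703 and Trim26 from -0.802 to 0.229 with a pair left out; Abcc10 was -0.0952 and Zfp593 -0.125 on the spike-ins, and Zfp593 -0.0423 as a mean of probe sets; Pou5f1 was -0.153 on the spike-ins; and Ccna2 was 0.109 as a mean of probe sets. The cause of these shifts was not tested.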
